A study of Mus musculus with 20 samples.

Results

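A set of 10 endoderm genes was followed while mouse embryonic stem cells were converted to epiblast stem cells: Sox17, Foxa1, Foxa2, Gata4, Gata6, Cxcr4, Cer1, Hhex, Trh and Foxq1. They were taken by symbol from a named list, and all 10 of 10 had 1 row in the tables of each line, which hold 23361 entries. The list was chosen with earlier results of these data known, so its counts beside a background describe the list and carry no test. Messenger RNA was sequenced from PGK cells, which are female, and from E14 cells, which are male, with 10 libraries per line. Cells at day 0 were kept in 2i, a medium that holds embryonic stem cells in the naive state. The later groups had been plated on fibronectin in N2B27 medium with activin A and Fgf2, which carries cells to the primed state of the post-implantation epiblast, and were sampled at day 4, day 10, between days 19 and 23 and between days 27 and 30. Every stage was sampled in 2 differentiation experiments named diff2 and diff3, so each of the 10 groups had 2 libraries. Because only 1 line stands for a sex, effects of line and sex cannot be told apart. The cultures were split at day 4 and then regularly up to day 30.

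Definitive endoderm arises at gastrulation, when epiblast cells pass through the anterior primitive streak under high Nodal signalling, and it gives rise to the lining of the gut and to organs such as liver and pancreas. Activin A acts on the same receptors as Nodal and is widely used to derive endoderm in culture, and it is also the factor that maintains epiblast stem cells. Several of the 10 genes are shared with the primitive and visceral endoderm of the early embryo, which are extraembryonic. The list holds transcription factors (Foxa1, Foxa2, Foxq1, Gata4, Gata6, Sox17 and Hhex), a secreted inhibitor (Cer1), a chemokine receptor (Cxcr4) and a hormone precursor (Trh).

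Promoter sequence, 250 bases before to 50 after a start annotated in RefSeq (GRCm38.p6), was at hand for 6 members: Foxa1, Foxa2, Cxcr4, Cer1, Hhex and Trh. The first entry of each gene was searched. It is shown here for the members in which a motif was found, Foxa1 and Cxcr4, and for Cer1, whose log2 fold change over the whole course was the highest of the 10 in both lines. The windows are chr12:57546062-57546361 for Foxa1, chr1:128592250-128592549 for Cxcr4 and chr4:82885102-82885401 for Cer1, all on the minus strand and written 5′ to 3′. The Foxa1 window lies wholly inside the gene span annotated in GENCODE, 57540628 to 57546916, so its match is not upstream of that span. Capitals mark the motif matches, which were the forkhead letters in Foxa1 and the overlapping TATA letters of both strands in Cxcr4.
Foxa1: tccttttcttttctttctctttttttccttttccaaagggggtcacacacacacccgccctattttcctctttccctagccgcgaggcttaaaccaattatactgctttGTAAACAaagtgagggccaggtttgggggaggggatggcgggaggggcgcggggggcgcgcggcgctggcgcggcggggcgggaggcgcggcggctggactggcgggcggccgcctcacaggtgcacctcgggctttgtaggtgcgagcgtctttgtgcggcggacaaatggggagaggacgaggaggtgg
Cxcr4: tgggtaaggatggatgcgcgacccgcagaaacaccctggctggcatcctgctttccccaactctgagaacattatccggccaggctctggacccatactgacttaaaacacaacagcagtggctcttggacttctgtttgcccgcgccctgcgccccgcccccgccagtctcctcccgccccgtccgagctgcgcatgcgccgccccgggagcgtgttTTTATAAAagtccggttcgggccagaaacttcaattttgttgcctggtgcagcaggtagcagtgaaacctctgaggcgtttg
Cer1: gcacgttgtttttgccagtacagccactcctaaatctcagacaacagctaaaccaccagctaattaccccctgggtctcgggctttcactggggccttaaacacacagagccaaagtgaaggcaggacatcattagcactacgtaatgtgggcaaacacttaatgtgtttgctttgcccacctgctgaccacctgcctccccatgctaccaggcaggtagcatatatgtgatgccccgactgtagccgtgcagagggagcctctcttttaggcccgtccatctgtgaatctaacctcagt
Both strands were searched for 7 motifs. For forkhead factors the letters were TGTTTAC, and for Sox factors they were ACAAT. Those for Gata factors were AGATAA, for Foxh1 AATCCACA and for T-box factors AGGTGTGA. A pair of Smad sites was searched as GTCTAGAC and the TATA box as TATAAA. The forkhead letters matched 1 of the 6 members and 3.55% of 27025 promoters of the same length, and the TATA letters 1 member and 14.2% of promoters. The letters for Sox, Gata factors, Foxh1, T-box and paired Smad matched 0 of the 6 members, and 31.6%, 11.4%, 0.873%, 1.27% and 0.211% of all promoters. Foxa2 has 3 entries, and the last of them, which these counts leave out, held AGATAA and TATAAA. A further 2 sets of letters were picked after the members' promoters had been read, so their matches describe that choice: the wider forkhead form TGTTTNC matched 3 members and 20.5% of promoters, and TAATTA matched 1 member and 5.31%. The Cer1 window held 6 CpG sites at 51.7% G and C, while the Hhex window held 37 at 75.7%. These matches are letters in a window and no measure of binding.

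The libraries held 2020254 to 26936415 counts. Those of E14 in diff3 were shallow at day 0 and day 4, with 3376500 and 2020254 counts, so that the floor of 3 counts equalled 0.888 and 1.48 CPM (counts scaled to a common library total) there, against 0.111 to 0.253 CPM in the other libraries. Values below such a floor rest on fewer than 3 reads, which for E14 diff3 at day 4 touches every member value under 1.48 CPM. Marker genes went with the labels: 12 of 12 naive pluripotency genes were lower at day 4 than at day 0 in PGK and 11 of 11 tested in E14. Of primed epiblast genes, 7 of 8 in PGK and 8 of 8 in E14 were higher. Over all genes tested, 984 were called lower and 1276 higher in PGK, and 638 lower and 748 higher in E14. Each stage was compared with the one before by edgeR's quasi-likelihood test, with Benjamini-Hochberg adjustment over all genes tested in the line, 15284 in PGK and 14501 in E14, and a threshold of 0.05. All 10 members passed the filter on low counts in both lines.

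Over the whole course 9 of the 10 genes rose in PGK and all 10 in E14. In PGK cells of days 27 to 30 against day 0, the background of genes called higher was 13.0%, and in E14 it was 8.73%. The median log2 fold change of the members was 6.14 in PGK and 6.49 in E14, beside medians over all genes of -0.06 and 0.19. The exception in PGK was Gata6, with a log2 fold change of 2.92 (SE 1.02, edgeR adjusted p = 0.0607), just above the threshold. Another test, limma on the deposited log2 values, called Gata6 higher there (log2 fold change 2.31, limma adjusted p = 0.0241). In mixed cultures a rise in the share of cells that express a gene and a rise in RNA per cell cannot be told apart.

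**Figure D1:**
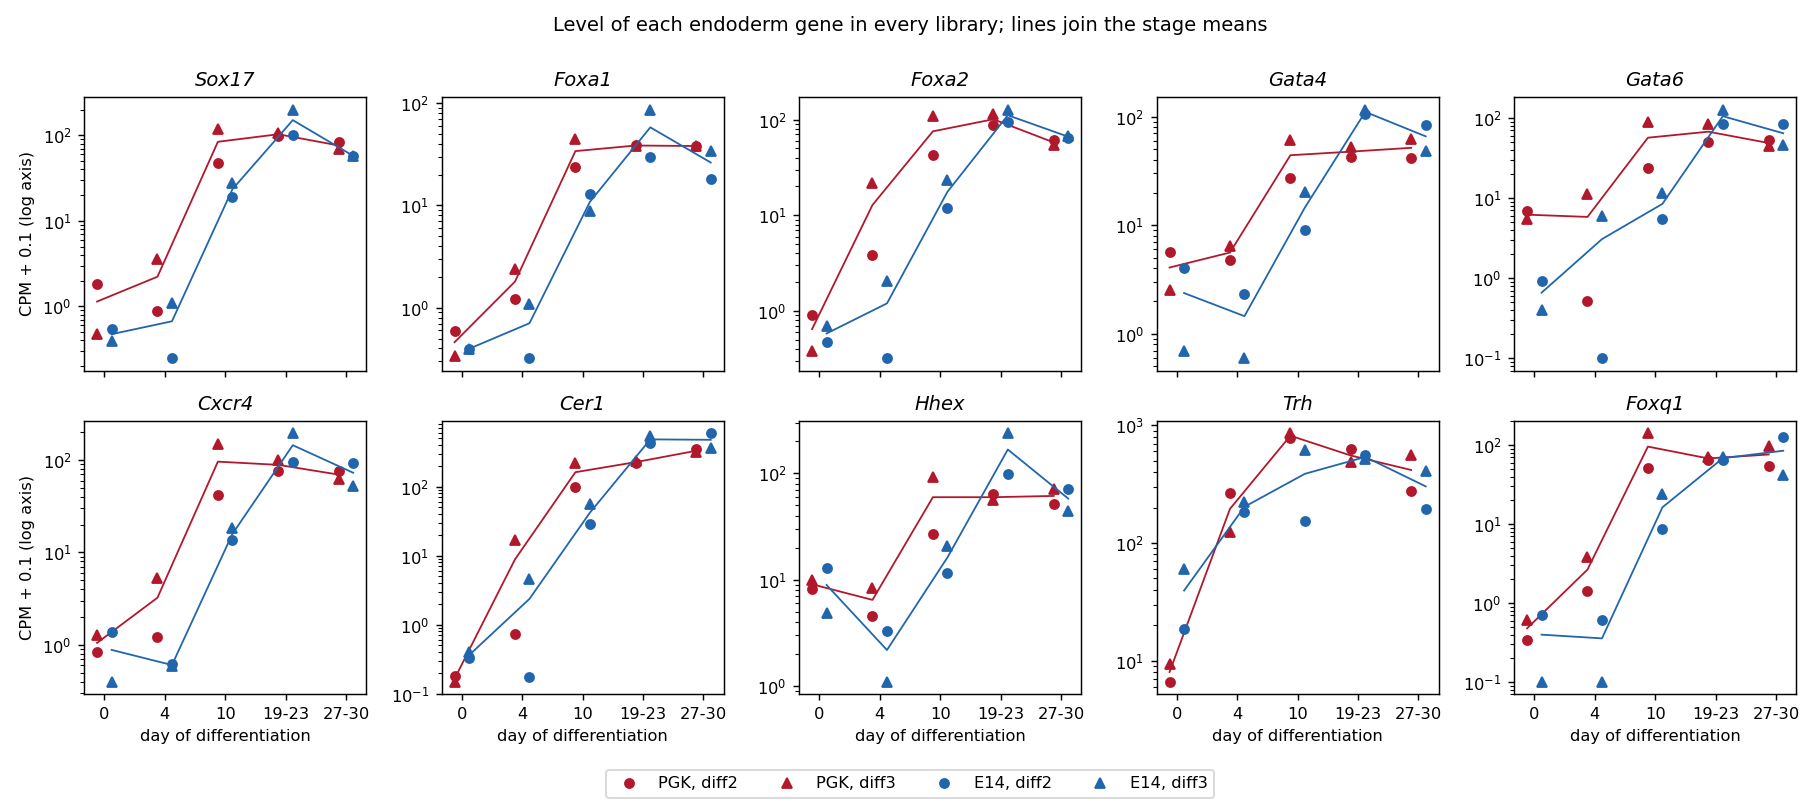
Level of each of the 10 genes in every library, in CPM + 0.1 on a log axis, by day of differentiation. Red points are PGK and blue points E14, circles are diff2 and triangles diff3, and lines join the stage means (n = 2 each). At day 10 both PGK libraries lie above both E14 libraries in all 10 panels, as they do for 13.9% of 15729 genes.

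Foxa1 and Foxa2 encode forkhead pioneer factors, which can open compact chromatin in foregut and liver precursors. Foxa2 (GRCm38, chromosome 2, 148042877 to 148046969) measured 0.812 and 0.281 CPM at day 0 in PGK, in diff2 and diff3, then 3.72 and 21.7 CPM at day 4, 42.4 and 108 CPM on day 10, 88.2 and 113 CPM at days 19 to 23 and 60.8 and 54.4 CPM at days 27 to 30. In E14 the same stages gave 0.373 and 0.592, 0.221 and 1.98, 11.7 and 23.2, 94.8 and 127, and 64.8 and 67.4 CPM. Foxa2 thus passed 1 CPM in both libraries of PGK by day 4 and in both of E14 by day 10. Foxa1 (chromosome 12, 57540628 to 57546916) measured 1.12 and 2.28 CPM at day 4, 23.5 and 44.2 CPM on day 10 and 37.8 and 38.1 CPM at days 27 to 30 in PGK. In E14 Foxa1 reached 12.7 and 8.76 CPM at day 10, and at days 19 to 23 its diff2 and diff3 libraries gave 29.4 and 86.3 CPM. At day 0 Foxa1 was at 0.487 and 0.234 CPM in PGK and 0.298 and 0.296 CPM in E14. All libraries from day 10 on lay above all of days 0 and 4 for both genes in each line. The share of all genes with this pattern was not counted.

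Gata4 and Gata6 encode zinc finger factors of primitive endoderm, definitive endoderm and heart. Both had counts in 2i, with Gata4 (chromosome 14, 63198922 to 63271692) at 5.52 and 2.43 CPM in PGK and 3.95 and 0.592 CPM in E14 at day 0. Gata6 (chromosome 18, 11052064 to 11085635) stood at 6.82 and 5.38 CPM in PGK and at 0.82 and 0.296 CPM in E14 at day 0, a pair of groups that do not overlap (log2 fold change 3.23, SE 1.42, edgeR adjusted p = 0.368). Both PGK libraries lay above both E14 libraries at day 0 for 1 member, Gata6, as they did for 20.3% of genes. At day 4 Gata4 was at 4.7 and 6.3 CPM in PGK against 2.21 and 0.495 CPM in E14, and at day 10 it was at 27 and 61 CPM against 8.9 and 20 CPM. Between days 27 and 30 it was at 41.1 and 61.9 CPM in PGK against 83 and 48.4 CPM in E14, where the lines overlap. At day 4 the experiments parted for Gata6, giving 0.421 CPM (diff2) and 11 CPM (diff3) in PGK, and no count (diff2) and 5.94 CPM (diff3) in E14. At day 10 it gave 23.6 and 89.5 CPM in PGK against 5.41 and 11.3 CPM in E14. At days 27 to 30 it gave 52.4 and 44.6 CPM in PGK against 83.1 and 45.4 CPM in E14, and the lines overlap there.

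Sox17 encodes an HMG box factor that definitive endoderm requires in the mouse embryo. It (chromosome 1, 4490931 to 4497354) measured 0.771 and 3.47 CPM at day 4 in PGK, 47.9 and 120 CPM on day 10, 98.8 and 107 CPM at days 19 to 23 and 83.2 and 68.7 CPM at days 27 to 30. In E14 it measured 0.147 and 0.99 CPM at day 4, 19 and 27.6 CPM on day 10, 101 and 200 CPM at days 19 to 23 and 57.5 and 57.4 CPM at days 27 to 30. At day 0 it was at 1.7 and 0.374 CPM in PGK and 0.448 and 0.296 CPM in E14. Its step between days 4 and 10 passed in both lines. An annotated transcript on the opposite strand, Gm37587, shares 16.8% of its exon bases.

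Hhex encodes a homeobox repressor of anterior endoderm, needed for liver and forebrain development. It (chromosome 19, 37434810 to 37440731) had counts in 2i in every library, at 8.12 and 9.77 CPM in PGK and 12.9 and 4.74 CPM in E14. At day 4 it was at 4.49 and 8.22 CPM in PGK and 3.17 and 0.99 CPM in E14, and neither line's difference from day 0 passed (edgeR adjusted p = 0.544 and 0.137). At day 10 Hhex measured 26.8 and 92.2 CPM in PGK against 11.4 and 20.7 CPM in E14, and at days 27 to 30 it measured 51.7 and 70.6 CPM in PGK against 71.8 and 43.7 CPM in E14. The PGK libraries lay above those of E14 at day 10, as they did for 13.9% of genes, and the lines overlap at days 27 to 30. Foxq1, a forkhead gene expressed in epithelia (chromosome 13, 31556134 to 31560976), had 0.244 and 0.514 CPM at day 0, 1.33 and 3.79 CPM on day 4 and 50.9 and 141 CPM at day 10 in PGK. In PGK at days 27 to 30 it had 54.8 and 97.5 CPM. In E14 Foxq1 had 0.597 and 0 CPM at day 0, 0.515 and 0 CPM by day 4, 8.65 and 23.8 CPM at day 10 and 128 and 42.0 CPM on days 27 to 30. The opposite-strand gene A530084C06Rik shares 66.1% of the exon bases of Foxq1, and whether strand was used in counting is not given in the sources used here, so reads of the pair may not have been told apart.

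Cer1 encodes Cerberus-like, a secreted antagonist of Nodal and BMP ligands made by anterior endoderm, and its log2 fold changes over the whole course were 12.22 in PGK and 10.88 in E14. It (chromosome 4, 82881751 to 82885148) had 2 reads in all at day 0 in PGK, then 0.631 and 16.8 CPM at day 4, 100 and 224 CPM on day 10, 218 and 236 CPM at days 19 to 23 and 347 and 316 CPM at days 27 to 30. The ratio of pooled CPM at days 27 to 30 over day 0 was 5600, with a 95% counting interval of 1550 to 46300 that covers counting error only. In E14 Cer1 measured 28.3 and 55.4 CPM at day 10, 430 and 540 CPM on days 19 to 23 and 592 and 364 CPM at days 27 to 30. In E14 both libraries of each later stage lay above both of day 10, and in PGK those of days 27 to 30 did. How many of all genes do so was not counted.

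Cxcr4 encodes the receptor of the chemokine Cxcl12 and is used as a surface marker to sort definitive endoderm. It (chromosome 1, 128588199 to 128592293) measured 1.12 and 5.16 CPM at day 4 and 41.9 and 150 CPM on day 10 in PGK, and 0.515 and 0.495 CPM at day 4 and 13.4 and 18.1 CPM on day 10 in E14. At days 27 to 30 it measured 75.9 and 62.9 CPM in PGK against 93.4 and 52.0 CPM in E14. At day 0 it measured 0.731 and 1.17 CPM in PGK against 1.27 and 0.296 CPM in E14, and the lines overlap at both ends of the course. Its ligand gene Cxcl12 rose already at day 4, to 13.7 and 7.49 CPM against 0.0812 and 0 CPM at day 0 in PGK (edgeR adjusted p = 0.000821). In E14 Cxcl12 rose to 24.5 and 21.3 CPM at day 4 against 0.373 and 0 CPM at day 0 (edgeR adjusted p = 0.00825).

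Trh encodes the precursor of thyrotropin-releasing hormone. It (chromosome 6, 92242061 to 92244650) measured 6.49 and 9.35 CPM at day 0 in PGK, 265 and 125 CPM on day 4, 778 and 853 CPM at day 10, 624 and 483 CPM on days 19 to 23 and 276 and 558 CPM at days 27 to 30. In E14 it measured 18.6 and 60.1 CPM at day 0, 185 and 221 CPM on day 4, 153 and 621 CPM at day 10, 555 and 521 CPM on days 19 to 23 and 196 and 409 CPM at days 27 to 30. Across the 20 libraries the Pearson correlation of Trh with the other members ran from 0.526 to 0.788, with a median of 0.735, whereas the 36 pairs among the other 9 ran from 0.867 to 0.99, with a median of 0.956. The libraries share lines and stages, so these values describe the pattern and carry no test. Pam, whose enzyme amidates peptide hormones, rose to 38.0 and 65.7 CPM at day 4 against 4.22 and 10.7 CPM at day 0 in PGK (edgeR adjusted p = 0.0019). In E14 Pam did not pass at this step (log2 fold change 0.89, SE 0.55, edgeR adjusted p = 0.352), but it rose over the whole course in both lines. The receptor genes Trhr and Trhr2 stayed at or below 0.562 CPM in every library.

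Per kilobase of exon, the scale on which genes can be set side by side, Trh had the highest level of the 10 in 9 of the 10 groups. In PGK at day 10 Trh measured 562 and 616 CPM per kilobase, followed by Cer1 at 57.7 and 129, Cxcr4 at 23.2 and 83.0 and Foxa2 at 17.9 and 45.4 CPM per kilobase. These 4 genes stood in this order within each of the PGK libraries, although the ranges over diff2 and diff3 overlapped between Cer1 and Cxcr4 and between Cxcr4 and Foxa2. Foxq1, at 10.5 and 29.2 CPM per kilobase, and Sox17, at 10.0 and 25.1, came next in each library. The order of Hhex, Gata4, Foxa1 and Gata6 below them differed between diff2 and diff3. In E14 at days 27 to 30 the order of the first pair differed between the libraries, with Cer1 above Trh in diff2, at 340 against 141 CPM per kilobase, and below it in diff3, at 209 against 296 CPM per kilobase.

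The first step led from 2i to day 4. In PGK at day 4 against day 0, Foxa1, Foxa2, Cer1, Trh and Foxq1 passed, beside a background of 8.35% of genes called higher, and 0 were called lower. Trh had the smallest adjusted p (log2 fold change 4.54, SE 0.46, edgeR adjusted p = 0.000209), followed by Foxa2 at 4.61 (SE 0.9, edgeR adjusted p = 0.00718). Gata4, Gata6, Hhex, Sox17 and Cxcr4 did not pass, with log2 fold changes between -0.55 and 1.66. Without the diff3 library of day 0 only Trh was called in PGK, and without the diff3 library of day 4 Foxa2 and Trh were called higher and Gata6 lower.

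In E14 the same step called 0 members with edgeR, beside a background of 5.16%, and 2 had an unadjusted p under 0.05, as did 24.8% of genes. These were Trh, with a log2 fold change of 2.45 (SE 0.7, edgeR adjusted p = 0.0525), and Hhex, at -1.9 on that scale (SE 0.73, edgeR adjusted p = 0.137). With experiment as a replicate block Trh passed (log2 fold change 2.65, edgeR adjusted p = 0.0113), and DESeq2 called it as well (adjusted p = 0.00865), along with 10.4% of genes called higher. The diff3 libraries of this step are the shallow ones, and without both of them edgeR called 0 members.

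Between day 4 and day 10, 7 of the 10 members rose in PGK, Sox17, Foxa1, Gata4, Cxcr4, Hhex, Trh and Foxq1, beside a background of 1.05% of genes called higher. Sox17 and Foxq1 had the highest log2 fold changes, 5.22 (SE 0.77, edgeR adjusted p = 0.0121) and 5.17 (SE 0.65, edgeR adjusted p = 0.00752). Foxa2 at 2.52 (SE 0.72), Gata6 at 3.25 (SE 1.03) and Cer1 at 4.16 (SE 0.96) did not pass, with edgeR adjusted p of 0.141, 0.196 and 0.0671. The median of the list was 3.71 and that of all genes -0.01. Without the diff3 library of day 10 the count was 2, Foxa1 and Foxq1, and without the diff2 library of day 4 it was 4.

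In E14 the step from day 4 to day 10 raised 2 members, Sox17 (log2 fold change 6.24, SE 0.81, edgeR adjusted p = 0.0178) and Cxcr4 (4.94, SE 0.76, edgeR adjusted p = 0.0284), beside a background of 0.145% of genes called higher. The fitted median of the list was 4.73, and 8 members had an unadjusted p under 0.05 in this direction, as did 6.16% of all genes. The members above that p were Gata6 at 2.04 (SE 1.36) and Trh at 0.97 (SE 0.66). DESeq2 called 8 members, beside 2.62% of genes called higher, and without the diff2 library of day 4 edgeR called 0. Without the diff3 library of day 4 it called 1, Cer1, and without either library of day 10 it called 1, Sox17.

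**Figure D2:**
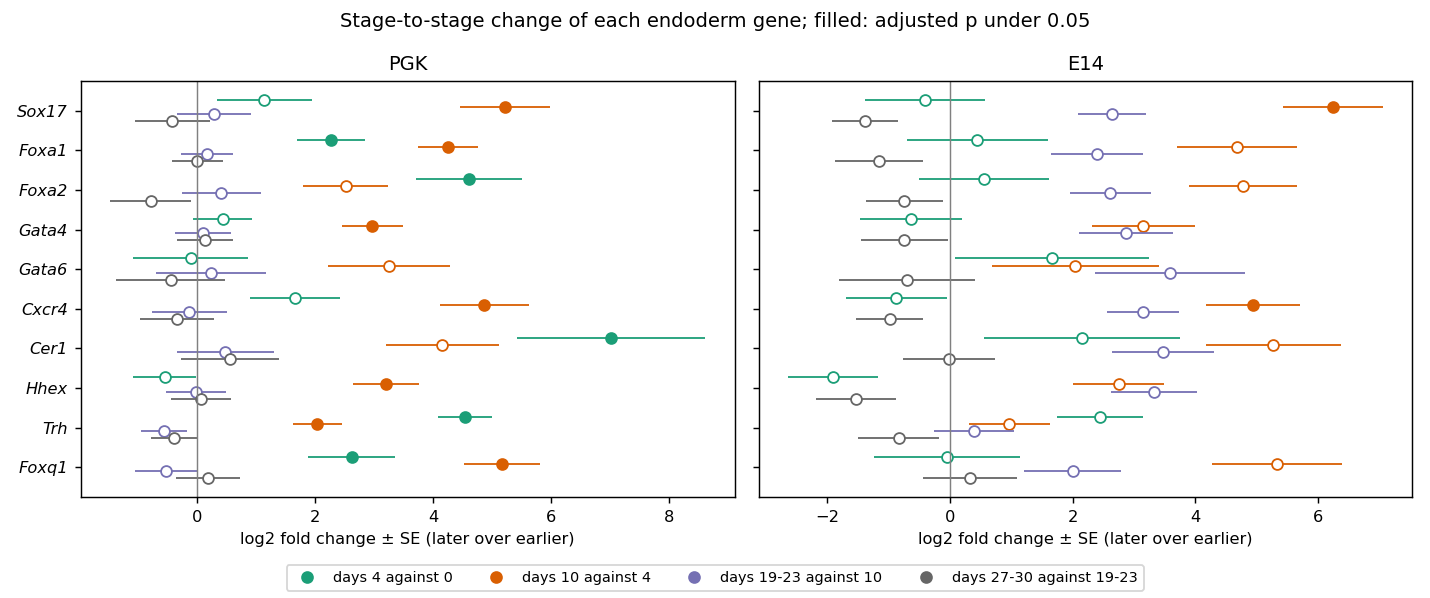
Log2 fold change of each gene from a stage to the next with its standard error, PGK on the left and E14 on the right, from edgeR fits of 10 libraries a line. Filled points passed an adjusted p of 0.05. Most orange points (day 10 against day 4) lie between 2 and 6 in both lines, while the purple points (days 19 to 23 against day 10) lie near 0 in PGK and mostly between 2 and 4 in E14.

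After day 10 no member's change passed in PGK. At days 19 to 23 against day 10 their log2 fold changes ran from -0.56 to 0.48 and edgeR called 0 members, with 0 at an unadjusted p under 0.05 and a background of 0.0% of genes called higher. At days 27 to 30 against days 19 to 23 they ran from -0.79 to 0.56, again with 0 members called, 0 at an unadjusted p under 0.05 and a background of 0.0%. DESeq2 called 0 members in both steps.

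In E14 the fitted changes after day 10 were larger. At days 19 to 23 against day 10 the log2 fold changes ran from 0.4 to 3.58 with a median of 2.75, and 9 of 10 members, all but Trh, had an unadjusted p under 0.05, as did 3.49% of all genes in this direction. EdgeR called 0 members and a background of 0.0% of genes higher, while DESeq2 called 6 members, Cer1, Cxcr4, Foxa2, Gata4, Hhex and Sox17, beside 1.3% of genes called higher. At days 27 to 30 against days 19 to 23 edgeR called 0 members and a background of 0.0%. There 9 of 10 log2 fold changes were below 0, with a median of -0.79 over the members beside 0.01 over all genes. Sox17 at -1.38 (SE 0.54) and Hhex at -1.53 (SE 0.65) were under an unadjusted p of 0.05, as were 0.517% of genes in this direction.

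The share of the late level reached at day 10 was next set beside the same share in the other line. Taken as a percentage of a line's mean CPM over days 19 to 30, the day 10 means of the members ran from 58.0% for Cer1 to 168% for Trh in PGK. In E14 they ran from 8.7% for Cer1 to 25.6% for Foxa1, except for Trh at 92.1%. At day 4 Trh stood at 40.2% in PGK and 48.3% in E14, while the other 9 stood at or below 16.1% in PGK and 3.51% in E14. At day 10 Cer1 had the lowest share of the 10 and Trh the highest in both lines. These means pool diff2 and diff3, which parted in PGK. In diff2 every member but Trh was lower at day 10 than at days 19 to 23. Cer1 measured 100 against 218 CPM there, and Hhex 26.8 against 63.4 CPM. In diff3 every member but Foxa2 and Cer1 was higher at day 10, with Hhex at 92.2 against 55.6 CPM. The share of all genes at such percentages was not counted.

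**Figure D3:**
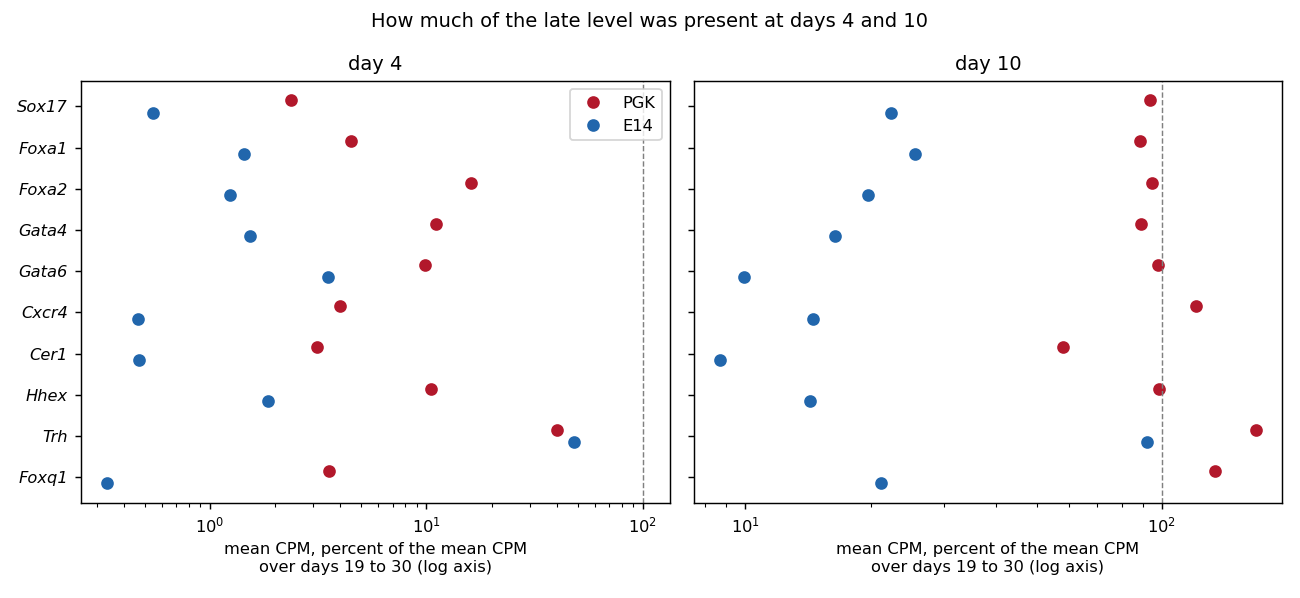
Mean CPM of each gene at day 4 (left) and day 10 (right) as a percentage of the line's mean over days 19 to 30, on log axes, with PGK in red and E14 in blue (n = 2 libraries a stage). The dashed line marks the late level. At day 10 the PGK points lie between 58.0% and 168%, and the E14 points other than Trh between 8.7% and 25.6%. Each point pools diff2 and diff3, and in PGK at day 10 diff3 was over 2-fold higher for 8 members.

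Set against each other at the same stage, PGK and E14 had median log2 fold changes over the members of 2.4 at day 4 and 1.89 at day 10, and of 0.15, -0.59 and -0.09 at the other stages. At day 10 both PGK libraries lay above both E14 libraries for all 10 members, as they did for 13.9% of 15729 genes, and 9 members, all but Trh, had an unadjusted p under 0.05 in this direction, as did 2.06% of genes. None passed after adjustment: edgeR called 0 members and a background of 0.0636% of genes, and DESeq2 called 1, Cxcr4, beside 0.477% of genes. The log2 fold changes of PGK over E14 at day 10 ran from 1.02 for Trh to 2.71 for Gata6, and Cxcr4 had 2.59 (SE 0.66, edgeR adjusted p = 0.455).

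At day 4 both PGK libraries lay above both E14 libraries for 6 members, Foxa1, Foxa2, Gata4, Cxcr4, Hhex and Foxq1, as for 20.9% of genes. An unadjusted p under 0.05 in this direction was reached by 7 members and 4.7% of genes. EdgeR called 0 members, beside a background of 0.165% of genes. Foxa2 came nearest, at 3.72 and 21.7 CPM in PGK against 0.221 and 1.98 CPM in E14 (log2 fold change 4.47, SE 1.02, edgeR adjusted p = 0.0971), and DESeq2 called it (adjusted p = 0.00161), beside 1.47% of genes called.

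At day 0 edgeR called 0 members beside a background of 0.509%, with 2 members, Gata6 and Trh, at an unadjusted p under 0.05, as were 12.3% of genes. DESeq2 gave a call for 1 member, Trh, and for 4.35% of genes. Both PGK libraries lay below both E14 libraries for 2 members, Cer1 and Trh, as they did for 13.0% of genes. Trh was at 6.49 and 9.35 CPM in PGK against 18.6 and 60.1 CPM in E14 (log2 fold change -2.19, SE 0.63, edgeR adjusted p = 0.145). At days 19 to 23 edgeR called 0 members beside a background of 0.0636%, with log2 fold changes from -1.46 to 0.07 and 1 member, Hhex, at an unadjusted p under 0.05, as were 4.54% of genes. At days 27 to 30 edgeR called 0 members beside a background of 0.0572%, with log2 fold changes from -0.5 to 0.58 and 0 at an unadjusted p under 0.05. DESeq2 called 0 members at both late stages.

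Whether a step itself differed between the lines was tested as the PGK change minus the E14 change. For day 4 against day 0 edgeR called 0 members beside a background of 0.0763%, and Foxa2 at 4.18 (SE 1.59, edgeR adjusted p = 0.521) and Trh at 2.13 (SE 0.86, edgeR adjusted p = 0.563) had an unadjusted p under 0.05, as did 7.41% of genes. For day 10 against day 4 it called 0 members beside a background of 0.0127%, with 0 at an unadjusted p under 0.05. For days 27 to 30 against day 0 it called 0 members beside a background of 0.0509%, and 1 member, Trh, had an unadjusted p under 0.05 (2.69, SE 0.86, edgeR adjusted p = 0.571), as did 6.39% of genes. DESeq2 called 0 members in all 3. A step called in PGK and not in E14 is therefore not shown to differ between them.

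Levels in diff3 were next set beside those in diff2 within each line. In PGK at day 4, 9 of the 10 members were higher in diff3 than in diff2, 7 of them by over 2-fold, and Trh was the exception at 125 CPM in diff3 and 265 CPM in diff2. At day 10 all 10 were higher in diff3, 8 by over 2-fold. Among all genes with a mean of at least 5 CPM, 4.91% at day 4 and 3.98% at day 10 were over 2-fold higher in diff3. Members were counted at any level, and 6 of them reached that mean at day 4 and all 10 at day 10. The share at day 4 is thus no matched background for the members below that mean. The share of genes higher in diff3 by any amount was not counted. At days 19 to 23 no member differed by over 2-fold in that direction in PGK. In E14 at day 4, 6 members were higher in diff3, 5 of them by over 2-fold. Of genes with a mean of at least 5 CPM 9.95% were, but only 1 member, Trh, reached that mean. That share is thus no matched background for those 5. The diff3 value of every member other than Foxa2, Gata6, Cer1 and Trh also lay below the floor of 1.48 CPM. In E14 at day 10, 9 members were higher in diff3, all but Foxa1, and 4 by over 2-fold, as were 9.72% of genes. At days 19 to 23 in E14, 9 were higher in diff3, all but Trh, and 3 by over 2-fold, as were 1.62% of genes. In the labels, 6 libraries have a code in the title, namely those of diff2 at days 0, 4 and 10, so experiment and library code cannot be told apart at these stages. In PGK the streak gene T moved with them at day 4, at 28.2 CPM in diff2 and 474 CPM in diff3. Its part in the difference was not tested.

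**Figure D4:**
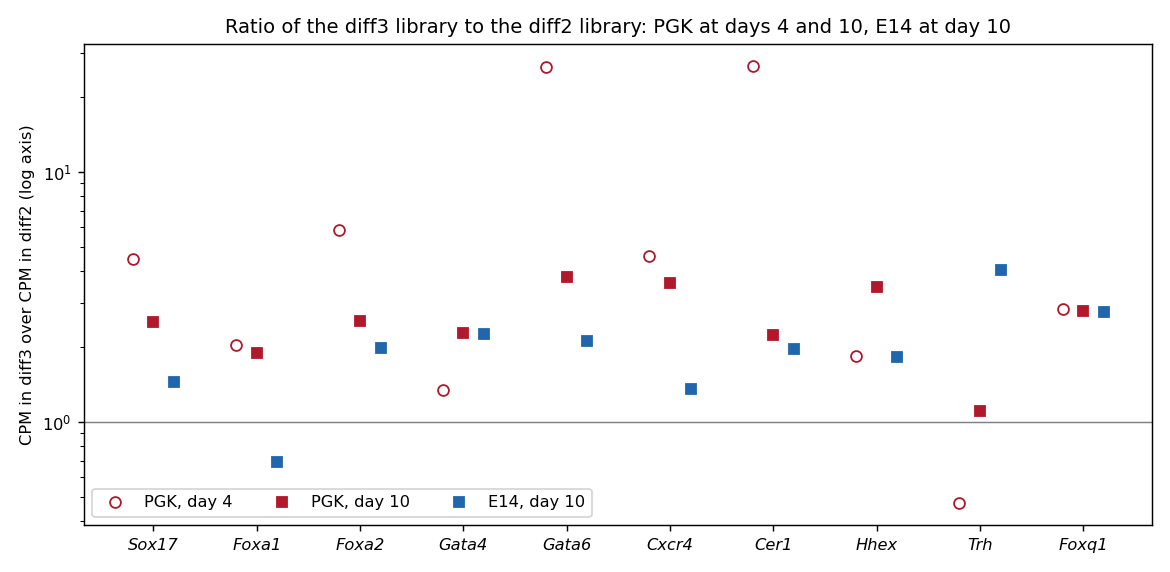
CPM in diff3 over CPM in diff2 for each gene on a log axis, for PGK at day 4 (open circles), PGK at day 10 (red squares) and E14 at day 10 (blue squares). The grey line marks equal levels. The members lie above the line in PGK at both days except for Trh at day 4, and in E14 except for Foxa1.

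Other genes of the same lineage were taken from lists. Of 13 tested further genes of definitive endoderm and gut epithelium, 3 rose and 1 fell in PGK at day 4 against day 0, 2 rose at day 10 against day 4, and 6 rose and 1 fell over the whole course. The epithelial genes Cldn6 and Krt19 and the signalling gene Shh were among the risers. Shh measured 26.3 and 10.9 CPM at day 10 against 0.0701 and 0 CPM at day 4 in PGK (edgeR adjusted p = 0.00414). In E14, 1 of 13, Cldn6, rose and 2 fell at day 4 against day 0, Elf3 and Prdm1, with a list median of -0.63. At day 10 against day 4 in E14 edgeR called 0 of 13, with a list median of 3.36, and over the whole course 4 rose and 1 fell. The median log2 fold change over the whole course was 3.75 in PGK and 3.95 in E14. Over all genes, the shares called higher in these comparisons were 8.35%, 1.05% and 13.0% in PGK, and 5.16%, 0.145% and 8.73% in E14.

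Genes of the primitive streak and mesendoderm, through which endoderm precursors pass, were read in the same way. Of 14 tested in PGK, 7 rose at day 4 against day 0 and 0 at day 10 against day 4, beside 8.35% and 1.05% of all genes. Wnt3, a ligand that starts the streak, rose to 35.0 and 78.0 CPM at day 4 against 1.38 and 1.68 CPM at day 0 (edgeR adjusted p = 0.000243), and Fgf8 to 15.4 and 26.6 CPM against 1.06 and 0.327 CPM (edgeR adjusted p = 0.000325). T, which encodes Brachyury, passed at this step too (log2 fold change 8.14, SE 1.24, edgeR adjusted p = 0.00187). In E14, 2 rose and 1 fell at day 4, beside 5.16% of all genes called higher. At day 10 against day 4, 1 rose, beside 0.145% of all genes. This was T, at 66.9 and 235 CPM against 3.53 and 4.95 CPM at day 4 (edgeR adjusted p = 0.0284).

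The Nodal pathway induces endoderm in the embryo. Of 20 genes tested in PGK, 4 rose and 4 fell over the whole course, and of 19 in E14, 3 rose and 4 fell. Over all genes 13.0% were called higher in PGK and 8.73% in E14. Lefty1, a secreted Nodal inhibitor and target, rose to 178 and 67.1 CPM at day 4 against 2.6 and 7.48 CPM at day 0 in PGK (edgeR adjusted p = 0.000821), and to 192 and 130 CPM against 6.27 and 9.77 CPM in E14 (edgeR adjusted p = 0.000592). Cfc1, a co-receptor of Nodal, rose between days 4 and 10 in PGK, to 24.1 and 40.5 CPM against 0.421 and 0.959 CPM (edgeR adjusted p = 0.00314). In E14 Cfc1 did not pass at this step (log2 fold change 4.26, SE 1.49, edgeR adjusted p = 0.368), but it rose over the whole course in both lines.

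Markers of other cell types that the cultures could hold were read beside the list. Of 20 extraembryonic endoderm genes 17 were tested in each line, and over the whole course 3 rose and 2 fell in PGK and 4 rose and 1 fell in E14. The visceral markers Afp and Ttr stayed at or below 0.468 and 1.18 CPM in every library. Other genes of the list did not, with highest values of 30.6 CPM for Dab2, 33.2 CPM for Pdgfra and 25.3 CPM for Cited1. Of the basement membrane genes, Lamb1, Col4a1 and Col4a2 rose in both lines, Lama1 fell in both and Lamc1 fell in PGK. Rbp4, a retinol carrier gene, also rose in E14. The list's summed level was 2020 and 2080 CPM at days 27 to 30 against 1570 and 1700 CPM at day 0 in PGK, and 1720 and 1830 CPM against 1720 and 1840 CPM in E14. Of genes known from fibroblasts and feeders, 7 of 12 rose over the whole course in PGK and 5 of 11 in E14. Their summed level was 379 and 382 CPM at days 27 to 30 against 24.2 and 8.98 CPM at day 0 in PGK, and 327 and 522 CPM against 19 and 0 CPM in E14. At days 27 to 30 the highest mean among them was that of Tagln in PGK, 143 CPM, and of Acta2 in E14, 148 CPM. Lum, Fap, Twist2, S100a4 and Dcn stayed at or below 2.25 CPM in every library, although Dcn was among the risers in PGK. The other genes of that list reached higher values. Of 10 endothelial and blood genes Cdh5 stayed at or below 2.81 CPM. Of the 7 tested in PGK Runx1 rose over the whole course and Pecam1, Tek and Kdr fell, and of the 6 tested in E14 0 rose and Pecam1 fell. Of 6 node and notochord genes, which include Shh and T, 4 rose over the whole course in each line. For all of these lists the background of genes called higher over the whole course was 13.0% in PGK and 8.73% in E14. The part of these cell types in the levels of the members was not tested.

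Of 13 close relatives of the members tested in PGK, 2 rose over the whole course, Foxa3 and Foxb1, and Gata2 fell. Of 12 in E14 Gata3 rose and Gata2 fell. Over all genes 13.0% were called higher in PGK and 8.73% in E14, so these counts are near the background. Foxa3 measured 5.99 and 9.43 CPM at days 27 to 30 against 0.0812 and 0.327 CPM at day 0 in PGK (edgeR adjusted p = 0.00554). Sox7, the relative of Sox17 that marks extraembryonic endoderm, stayed at or below 2.12 CPM in every library, whereas Dab2 and Pdgfra of the extraembryonic list reached 30.6 and 33.2 CPM.

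For Sox17, Gata6 and Trh, the genes with the most similar profile were sought by Pearson correlation of log2(CPM + 1) over the 20 libraries, among 12455 genes. Among the genes searched, Sox17 was closest to Bmp2 (0.989), a BMP ligand, Dkk1 (0.988), a secreted Wnt inhibitor, and Samd3 (0.979). Gata6 was closest to Cfc1 (0.951), the secreted Wnt antagonist gene Frzb (0.935) and Samd3 (0.925). Trh was closest to Car4 (0.944), a carbonic anhydrase gene, the semaphorin gene Sema4c (0.935) and Lefty1 (0.927). Car4 shared the early course of Trh, at 169 and 61.1 CPM at day 4 in PGK, while Dkk1 was at 0.0701 and 4.02 CPM there. Libraries of a line and stage are not independent, so these coefficients carry no test.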

How the data were processed

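Messenger RNA was sequenced in 20 libraries of 2 cell lines. Per the file headers, the authors deposited 3 tables for each line. One holds raw counts, one a normalized signal, and one variance-stabilized values on a log2 scale. The submitters' processing notes name CASAVA 1.8.2, Cuffdiff, DESeq2 and GRCm38; their aligner, their annotation and the strand setting of the counter are not given in these sources. The labels call the libraries stranded. Within each library the ratio of counts to deposited signal was constant, with a largest relative spread of 1.41e-09.

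The 10 members and all lists were chosen with earlier results of these data known. CPM are counts scaled to a common library total, without TMM factors; every mean has n = 2. Exon lengths, positions and overlaps come from GENCODE M21 (GRCm38). Counts were tested with edgeR 4.0.16 in R 4.3.3 (TMM, filterByExpr with a minimum count of 10, robust quasi-likelihood, 18 comparisons), within a line from its 10 libraries (5 residual degrees of freedom) and between lines from all 20 (10). The SE is the absolute log2 fold change over the square root of F. Zero counts leave a floor of 3 counts, for counting error only. Alternatives were RLE size factors, no filter, DESeq2 1.42.0, limma 3.58.1 on the deposited log2 values, a replicate block, a library code term, a joint fit and leaving out each library. Named are all members and up to 3 genes per other list by adjusted p. The 3 genes outside the list of 10 most like Sox17, Gata6 and Trh are named too. Markers named for their absence or low level, and Foxa3, Sox7, Lamb1, Lama1, Dab2, Pdgfra and Cited1, were chosen after their values were seen.

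The labels name an experiment for every library, and that name pairs libraries across stages. The deviations of same-numbered libraries correlated at 0.38 to 0.452 among days 0 to 10 of PGK and 0.148 to 0.221 in E14, and between -0.216 and 0.0971 wherever a later stage entered. P-values measure the spread between these experiments and say nothing of other lines.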

Additional observations from a re-analysis of the deposited data

How the results depend on the processing

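The rises over the whole course depended least on the processing: 9 members were called in each PGK fit with a library left out and 8 to 10 in E14. Of the PGK calls over the whole course 9 of 9 held under every alternative, and 7 of 10 in E14. Limma on the deposited values also called Gata6 in PGK, which made 10 members. The earlier steps moved, and so did the number of all genes called. Brackets below give the genes called higher of all those tested. At day 4 against day 0 in PGK, 5 members were called (1276 of 15284). The count was 2 without the low-count filter (1410 of 18974) and 2 with limma on the deposited values (1385 of 15284). It was 3 in the joint fit (1000 of 15732) and moved with a library left out. At day 10 against day 4 in PGK it was 2 to 8 with a library left out. In E14 at day 4 against day 0, 0 members were called (748 of 14501). The replicate block (680 of 14501), the library code term (885), DESeq2 (1512) and limma (1065) each called 1, which was Trh. The joint fit (1358 of 15732) called Trh as well, and fits with a library left out varied. In E14 at day 10 against day 4, 2 members were called (21 of 14501). The count was 7 without the filter (113 of 18722), 8 with DESeq2 (380 of 14501) and 1 with limma (21 of 14501). It was 5 in the joint fit (175 of 15732) and fell with a library left out. In E14 at days 19 to 23 against day 10 edgeR called 0 members (0 of 14501). The count there was 3 without the filter (46 of 18722) and 6 with DESeq2 (188 of 14501). Between lines, DESeq2 called 1 member at day 0, 1 at day 4 and 1 at day 10, and the library code term 1 at day 4. All genes called there, in either direction, were 685, 231, 75 and 66 of 15732. With a library left out, Foxa2 was called at day 4 and Trh at day 0. Trh was also called in the step differences for day 4 and for days 27 to 30 against day 0. Each of these calls of Trh came from the fit without the diff2 library of E14 at day 0. That group then held only the shallow diff3 library. The median log2 difference over all genes was -0.811 and -0.946 for these steps, against -0.08 and -0.2 in the main fit. The paired analysis with the replicate block changed no other count by over 1.5 times. No member's fold change reversed among those called. Leaving out both shallow E14 libraries was chosen after the totals were seen and gave 3 members at day 10 against day 4. A fit that leaves a group with 1 library assumes that it varies like the others. Why the counts moved was not tested.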

Other observations

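Lists of other lineages were counted in the same way over the whole course. Of 7 neuroectoderm genes tested in PGK over the whole course 2 rose, Nes, which encodes an intermediate filament protein of neural progenitors, and Pax3, and of 5 in E14 Nes and Dcx rose. Of 8 cardiac mesoderm genes tested in PGK, 0 rose and Tbx5 fell, and of 6 in E14 Myh7 rose. Of 7 trophoblast genes in PGK, Krt7 and Eomes rose and Tfap2c fell, and of 8 in E14 Gata3 and Eomes rose and Tfap2c fell. These counts are from edgeR at an adjusted p under 0.05, and the lists share Krt7, Eomes and Gata3 with others above. The background of genes called higher was 13.0% in PGK and 8.73% in E14.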
